A study of Mus musculus with 6 samples.

Results

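Brain endothelial cells line the capillaries of the brain and, with their junctions and transporters, form the blood-brain barrier. The gene set described here holds 35 genes of that cell type, tight junction and barrier transport, chosen by name, and each had 1 record in the deposited table of 21540 records. All 35 records were marked as tested by the authors, as were 14959 records in all. The tissue was nucleus accumbens, a part of the ventral striatum, from C57BL/6 mice. Mice of one group were given cocaine intraperitoneally once a day for 7 days at 20 mg/kg, those of the other are labelled as saline controls, and both were taken 4 h into withdrawal. The labels list 3 libraries per group and do not say whether a library is 1 animal or a pool, nor the age or sex of the mice. The treatment text of the saline libraries is the same cocaine text, so their treatment label was used. Each gene has 1 value per group in FPKM, fragments divided by transcript length and library total, so levels can be compared between genes, but no value per library, SD or read depth stands behind them here.

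In the barrier, claudin-5 and occludin seal the cleft between neighbouring endothelial cells, and VE-cadherin holds the cells together below them. VEGF receptors and the Tie receptors pass growth and maturation signals to the vessel wall. Carriers on both cell faces bring in glucose, amino acids and lipids, and ABC pumps return lipophilic compounds to the blood. ETS and SOXF transcription factors keep the endothelial programme on. The whole tissue was sequenced, and in such bulk samples fewer endothelial cells and less RNA per endothelial cell cannot be told apart.

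Cldn5 and Ptprb were lower after cocaine, and no member was higher, at q < 0.05 in the authors' deposited table. Cldn5, which encodes claudin-5, the dominant tight junction claudin of brain endothelium, fell from 10.2 to 7.46 FPKM, and Ptprb, which encodes the endothelial phosphatase VE-PTP, fell from 1.98 to 1.54 FPKM. The other 33 members did not pass. Calls covered 1.23% of all tested records (0.709% lower and 0.521% higher), and 2 of the 35 members. At an unadjusted p under 0.05, 10 members were lower and 0 higher, where 3.74% of all tested records were lower.

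The sign of the difference was shared by most members. The deposited log2 fold change, cocaine over saline, was below 0 in 33 of 35, beside 59.0% of all tested records. The 2 members above 0 were Ocln and Mfsd2a, neither of which passed the threshold. The median over the members was -0.28, beside -0.02 over all tested records, and the members ranged from -0.999 (Abcb1a) to 0.33 (Ocln). The size of that median varied with the level of the members, at -0.25 over the 30 of at least 1 FPKM and -0.14 over the 11 of at least 5 FPKM. With 1 FPKM added to both groups it was -0.15, and with 0.1 FPKM added -0.27. Adding a constant shrinks any ratio at low levels, so these last values do not show what the median depends on. These counts describe the members and are not a test, because members share the same libraries and were chosen with results of these data known.

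**Figure D1:**
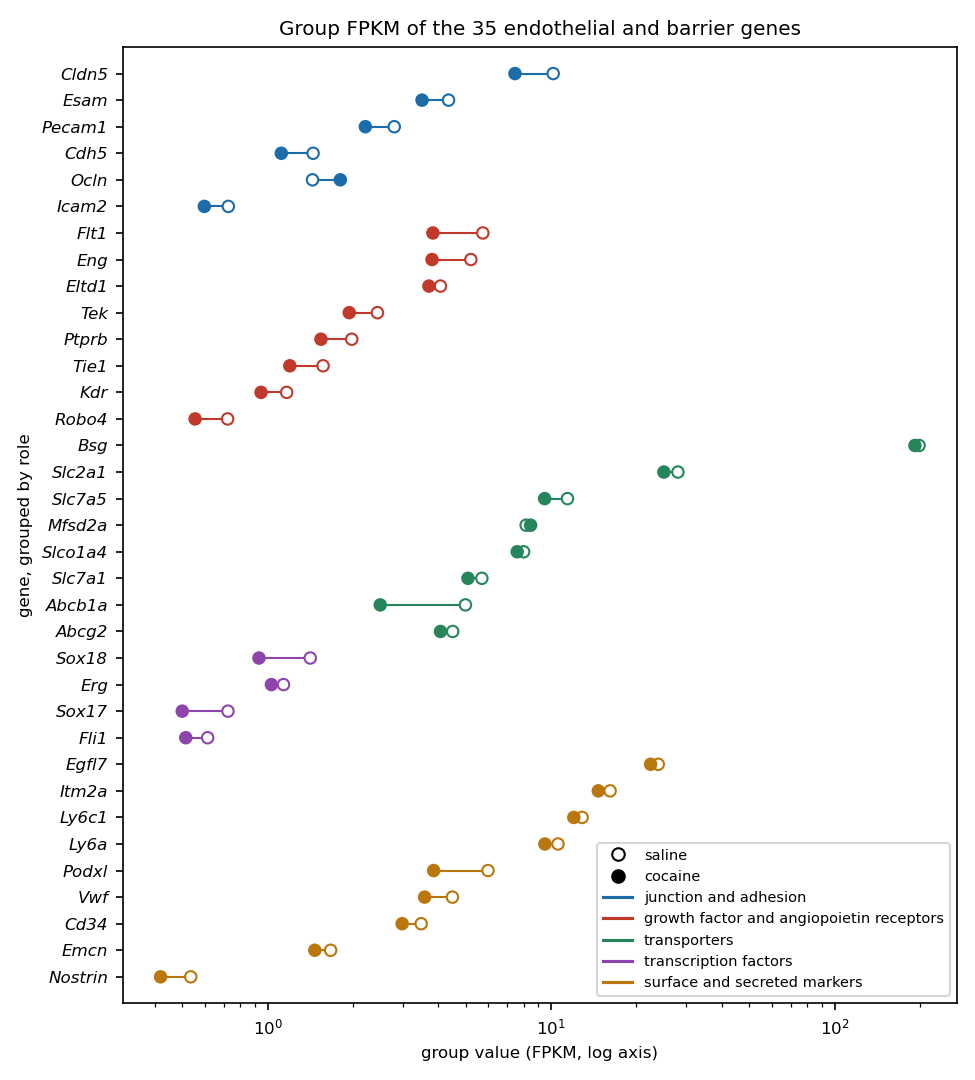
Group value of each of the 35 genes in FPKM on a log axis, saline as open and cocaine as filled circles, joined by a line and coloured by role. The filled circle lies to the left of the open one for 33 genes, and Cldn5 stands at 10.2 and 7.46 FPKM.

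Levels spanned a wide range. Bsg, which encodes basigin, a chaperone of monocarboxylate transporters that many cell types make, was the highest member at 199 FPKM after saline and 192 after cocaine. Slc2a1 followed at 28.02 and 24.997 FPKM, Egfl7 at 23.9 and 22.4, and Itm2a at 16.2 and 14.7. The lowest member was Nostrin at 0.535 and 0.419 FPKM. The median over the members was 4.35 FPKM after saline and 3.50 after cocaine. Whether neighbours in this order differ beyond the spread of the libraries cannot be said without values per library. Summed over all 35 members, the level was 397 FPKM after saline and 362 after cocaine, a difference of -8.67%. Without Bsg, the most abundant member, the sums were 198 and 170 FPKM, a difference of -14.0%. All defining endothelial genes of the set, such as Pecam1, Cdh5 and Cldn5, were above 0 in both groups, which alone does not show which cells the RNA came from.

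Of the 6 junction and adhesion genes, 1 fell and 5 did not pass, with a median log2 fold change of -0.32. For Cldn5 the authors' deposited table lists a log2 ratio of -0.45, a fall of 1.36-fold, with p = 5.98e-06 and q = 0.00123. Cdh5, which encodes VE-cadherin, the adhesion protein of endothelial adherens junctions, was at 1.45 FPKM after saline and 1.12 after cocaine. Pecam1, an adhesion molecule between endothelial cells, was at 2.80 and 2.21 FPKM. Esam, an adhesion molecule of endothelial tight junctions, was at 4.35 and 3.50 FPKM. Icam2, a ligand of leukocyte integrins, was at 0.726 and 0.598 FPKM. These 4 genes lay below saline by a smaller proportion than Cldn5. Ocln, which encodes occludin and is also made by epithelia, lay above saline in value, at 1.44 and 1.804 FPKM. The authors' deposited table gave a p of 0.0111 for Cdh5 (q = 0.498), 0.215 for Pecam1, 0.236 for Esam, 0.667 for Icam2 and 0.587 for Ocln.

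All 8 receptor and receptor phosphatase genes had values below saline, with 1 fall, 7 not past the threshold and a median log2 fold change of -0.37. Ptprb, whose product dephosphorylates Tie2 and VE-cadherin in endothelium, fell, and the authors' deposited table lists -0.36 as its log2 ratio (p = 5.06e-06, q = 0.00107). With 1 FPKM added to both groups its log2 fold change was -0.23. The other angiopoietin pathway receptors lay lower by similar proportions without passing. Tie1, an orphan co-receptor of Tie2, was at 1.57 FPKM after saline and 1.197 after cocaine. Tek, which encodes Tie2, the receptor of the angiopoietins, was at 2.44 and 1.94 FPKM. Among the VEGF receptors, Flt1 exceeded Kdr in FPKM in both groups. Flt1, which encodes a high-affinity receptor that limits VEGF signalling, was at 5.74 and 3.83 FPKM. Kdr, which encodes the main signalling receptor for VEGF, was at 1.17 and 0.947 FPKM. Eng, which encodes endoglin, a co-receptor for BMP and TGF-beta ligands, was at 5.21 and 3.80 FPKM. Robo4, an endothelial roundabout receptor, was at 0.722 and 0.554 FPKM, and Eltd1, an endothelial adhesion G-protein-coupled receptor, at 4.07 and 3.71 FPKM. Of the p-values that the authors' deposited table lists, those of Eng (p = 0.0278, q = 0.867) and Tie1 (p = 0.0397) were under an unadjusted p of 0.05, Kdr was at 0.0651, Flt1 at 0.146 and Robo4 at 0.234, and Tek and Eltd1 were at 0.598 and 0.778.

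The 8 transporter genes gave 0 calls, with a median log2 fold change of -0.15 and 2 members lower at an unadjusted p under 0.05. Those 2 were the amino acid carriers. Slc7a5, which encodes the large neutral amino acid carrier LAT1, was at 11.4 FPKM after saline and 9.48 after cocaine. Its listed q of 0.0605 (p = 0.000649, log2 ratio -0.27, from the authors' deposited table) lay just outside the threshold, and adjusted only over records with a mean of at least 1 FPKM the same p gave 0.0422. Slc7a1, which encodes the cationic amino acid carrier CAT1, was at 5.70 and 5.09 FPKM, and the authors' deposited table lists p = 0.00439 and q = 0.262 for it. Slc2a1, which encodes the glucose carrier GLUT1, stood at -0.16 on the log2 scale, with p = 0.0507 by the authors' deposited table. The remaining solute carriers lay nearer to 0. Mfsd2a, a carrier of lysophospholipids that holds down transcytosis at the barrier, was at 8.16 and 8.46 FPKM, and Slco1a4, an organic anion carrier, at 7.997 and 7.59 FPKM. The drug efflux pumps were lower in value without passing. Abcb1a, which encodes P-glycoprotein, stood at 4.99 and 2.49 FPKM, the largest proportional difference among the 35 genes, and Abcg2, which encodes BCRP, at 4.49 and 4.07 FPKM. The authors' deposited table gave a p of 0.420 for Bsg, whose log2 fold change was -0.05, 0.501 for Abcb1a, 0.634 for Mfsd2a, 0.683 for Slco1a4 and 0.732 for Abcg2.

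The 4 transcription factor genes were all below saline in value, with 0 calls and a median log2 fold change of -0.40. Sox18, a SOXF factor of vessel development, was at 1.41 FPKM after saline and 0.931 after cocaine. Sox17, a SOXF factor of arterial and barrier endothelium, was at 0.724 and 0.499 FPKM. The ETS factors differed by smaller proportions. Fli1, which microglia and blood cells also make, was at 0.614 and 0.514 FPKM, and Erg, which keeps endothelial genes on, at 1.14 and 1.03 FPKM. The authors' deposited table gave a p of 0.0172 for Sox18 (q = 0.660), 0.234 for Sox17, 0.330 for Fli1 and 0.673 for Erg. At levels near or below 1 FPKM the ratios depend on small values, and with 1 FPKM added to both groups the log2 fold change of Sox17 was -0.20, that of Sox18 -0.32 and that of Fli1 -0.09, where they were -0.54, -0.60 and -0.26 as deposited.

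The 9 surface and secreted marker genes also gave 0 calls, all with values below saline and a median log2 fold change of -0.19. Podxl, which encodes podocalyxin, a sialomucin of the luminal surface, had the largest proportional difference among them, at 5.99 FPKM after saline and 3.85 after cocaine. Vwf, which encodes von Willebrand factor, the platelet-binding protein stored in endothelium, was at 4.48 and 3.58 FPKM. Cd34, a sialomucin of endothelial and blood progenitor cells, was at 3.48 and 2.98 FPKM, and Emcn, the venous and capillary sialomucin endomucin, at 1.67 and 1.47 FPKM. The more abundant markers differed by smaller proportions. Itm2a, a membrane protein abundant in brain endothelium, was at 16.2 and 14.7 FPKM, and Ly6c1 and Ly6a, GPI-anchored surface proteins, at 12.86 and 12.03 FPKM and at 10.6 and 9.51 FPKM. Egfl7, a secreted endothelial matrix protein, had a log2 fold change of -0.09, while Nostrin, a partner of endothelial nitric oxide synthase, stood at -0.35. Of the p-values that the authors' deposited table lists, those of Podxl (p = 0.0101, q = 0.467) and Itm2a (p = 0.0474) were under an unadjusted p of 0.05, and p was 0.0815 for Cd34, 0.259 for Ly6a, 0.383 for Vwf and 0.410 for Ly6c1. It was 0.475 for Nostrin, 0.553 for Emcn and 0.627 for Egfl7.

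Some members are uncertain because reads could be shared. Ly6c1 has the close copy Ly6c2, at 4.17 and 4.06 FPKM, and Abcb1a has Abcb1b, at 0.870 and 0.761 FPKM, so these values depend on how reads were divided between copies. In the GENCODE annotation, 6 members share exon positions with another gene, among them Eng with Fpgs and Egfl7 with Agpat2. No source used here gives the strand setting, so reads of such neighbours cannot be told apart. Without those 6 members the median log2 fold change of the other 29 was -0.28.

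The deposited p-values did not follow the size of the differences alone. If the authors' test was a two-sided normal test, an assumption made here after seeing the data, a standard error of each log2 fold change follows from its p-value. This implied error ran from 0.0572 for Slc7a1 to 1.49 for Abcb1a, a 26.0-fold range, with a median of 0.25. It was 0.0989 for Cldn5 and 0.0790 for Ptprb. Flt1 and Tek, with levels above that of Ptprb, had implied errors of 0.40 and 0.63. For Abcb1a the implied 95% interval of the log2 fold change was -3.91 to 1.91. Under that assumption its deposited p-value does not separate a large fall from a rise of Abcb1a RNA. Where the wide implied error comes from cannot be said without values per library. For Mfsd2a the interval was -0.16 to 0.27 and for Bsg -0.17 to 0.07.

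**Figure D2:**
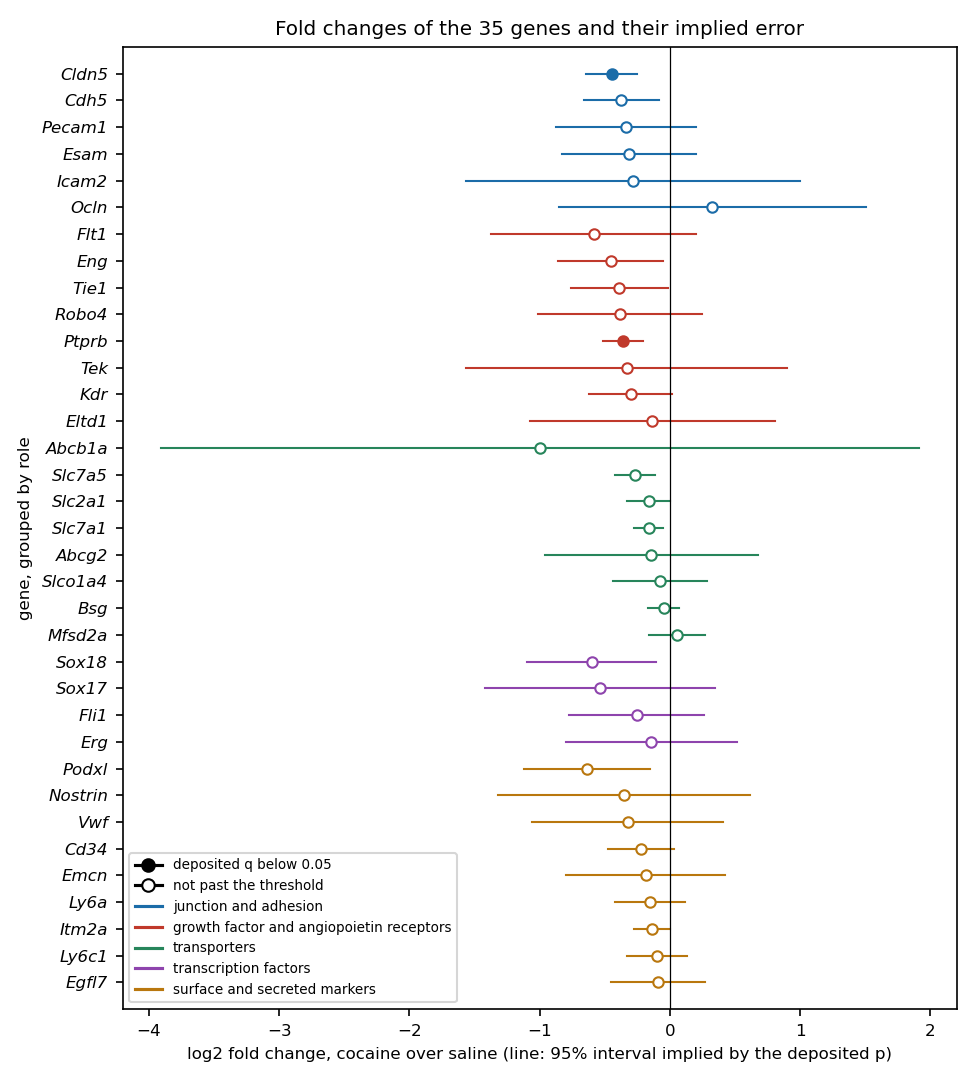
Deposited log2 fold change, cocaine over saline, of each gene, by role, with the 95% interval implied by its deposited p-value as a horizontal line and filled circles for q below 0.05. Only Cldn5 and Ptprb are filled, and the widest line, from -3.91 to 1.91, is that of Abcb1a.

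The size of the differences varied with the level of the gene. A log2 fold change of -0.3 or less was found in 17 of the 35 members, beside 5.17% of all tested records. Among members with a mean of 1 to 5 FPKM over both groups it was found in 13 of 19, beside 7.22% of tested records of that level. Under 1 FPKM it was found in 3 of 5, beside 20.3%. Among members of at least 5 FPKM it was found in 1 of 11, Cldn5, beside 1.02%, and the median of those 11 was -0.14. Across the 35 genes, which share the same libraries, Spearman's rho between log2 fold change and mean FPKM was 0.41, and over all 14959 tested records it was 0.05. The GC content of the longest transcript gave a rho of -0.32 over the members, beside -0.26 over the 14499 tested records with a matched transcript. With the trend in GC content and transcript length removed, 27 of the 30 members of at least 1 FPKM stayed below 0, and Bsg moved to 0.014.

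**Figure D3:**
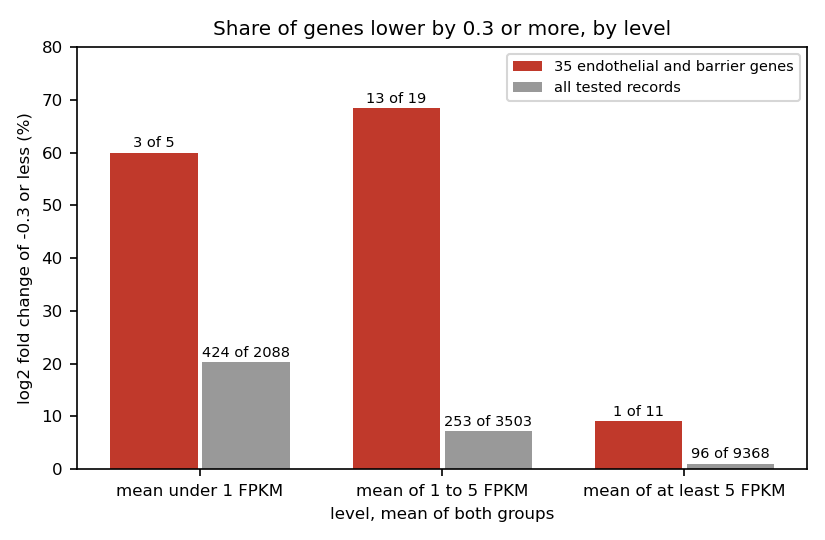
Percentage of genes with a deposited log2 fold change of -0.3 or less, in classes of mean FPKM, for the 35 genes and for all tested records, with counts above the bars. The bars of the 35 genes stand at 3 of 5, 13 of 19 and 1 of 11.

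Other genes of vessel and barrier were read from lists that hold no member, except for Sox17 in the Wnt list. Of 31 other endothelial markers tested, 0 passed, 27 were below 0 and the median log2 fold change was -0.27 as deposited. The size of that median varied with the level of the markers. With 1 FPKM added to both groups it was -0.12. Over the 19 markers of at least 1 FPKM it was -0.16, and over the 5 of at least 5 FPKM -0.05. The members had -0.15, -0.25 and -0.14 at these settings. The -0.05 is the value of Sgms1, and those 5 markers ranged from -0.32 (Ramp3) to 0.06 (S1pr1). Which cells their RNA came from was not tested, so so few genes cannot show whether abundant endothelial markers differ less. The trend in GC content and length was removed only for records of at least 1 FPKM. The median was then -0.12 over 19 markers, beside -0.22 over 30 members. At an unadjusted p under 0.05, 3 were lower and 0 higher, named here after their values were seen. In the authors' deposited table they were Gpr116, an adhesion receptor (2.63 and 2.10 FPKM, p = 0.0116), Foxq1, a forkhead factor (0.411 and 0.213 FPKM, p = 0.0127), and Cd93, a C-type lectin receptor (0.619 and 0.470 FPKM, p = 0.0274). The 15 other junction genes, many of them shared with other cell types, gave 0 calls and 0 at an unadjusted p under 0.05, with a median of -0.04. Tjp1, the junction scaffold ZO-1, stood at 16.8 and 17.0 FPKM.

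The 23 other barrier transporters gave 0 calls, 17 values below 0 and a median of -0.10. Slc3a2, the heavy chain that pairs with LAT1 at the cell surface, was at 27.7 FPKM after saline and 24.7 after cocaine (in the authors' deposited table log2 fold change -0.17, p = 0.00865, q = 0.419), lower in value like Slc7a5. The Wnt pathway that sets up the barrier gave 0 calls among 15 genes, with a median of -0.12. Its ligand gene Wnt7a was at 35.5 and 27.5 FPKM, and Gpr124, the co-activator of Wnt7 signalling in brain endothelium, at 2.22 and 1.89 FPKM. For Wnt7a the authors' deposited table lists p = 0.244, and for Gpr124 p = 0.0137 and q = 0.571. These genes were also named after their values were seen. Of 10 ligand genes of the vessel wall, 0 passed and the median was -0.04. Over records of at least 1 FPKM (21, 13 and 6 genes), the transporter, Wnt and ligand lists had medians of -0.06, -0.07 and -0.04. Once the trend in GC content and length was also taken off, these were -0.02, -0.05 and 0.00499. Angpt1, which encodes the Tie2 agonist, was at 0.414 and 0.296 FPKM, where the authors' deposited table lists p = 0.0950, and the record of Vegfa was marked as failed and gave no value.

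**Figure D4:**
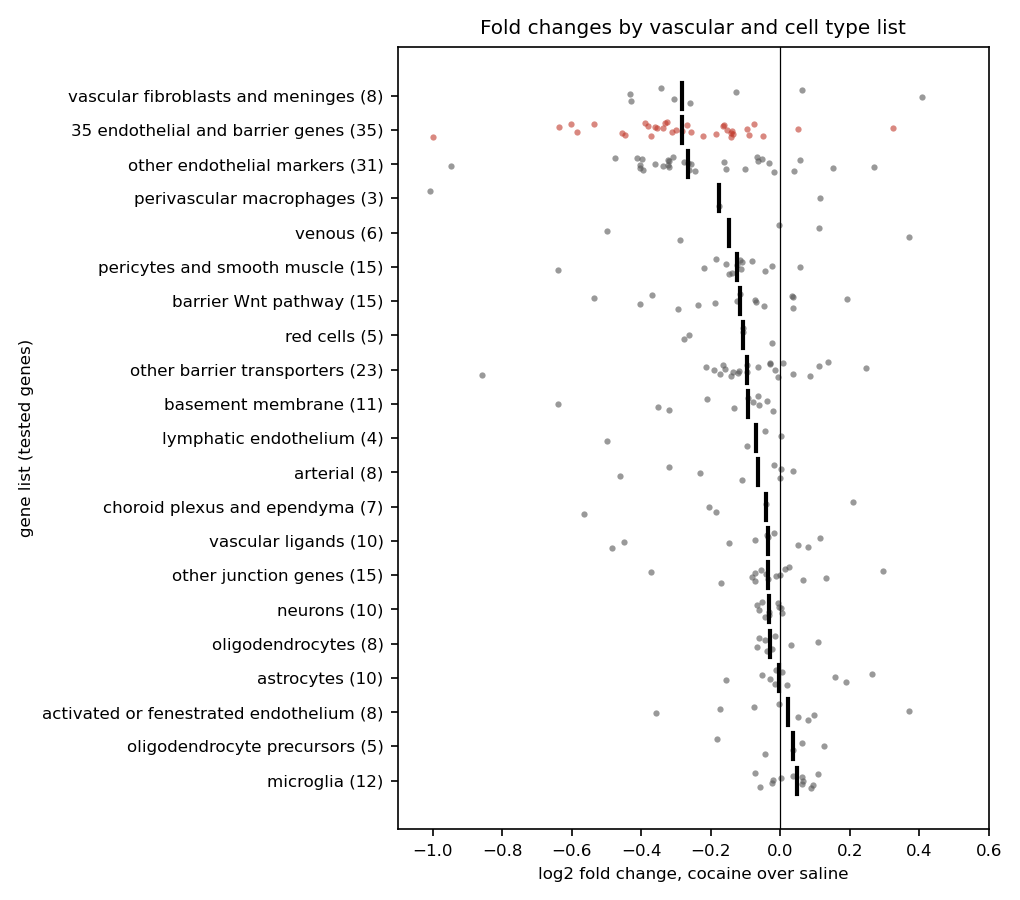
Deposited log2 fold change of each tested gene in 21 lists, ordered by median (vertical bar), with the 35 endothelial and barrier genes in red and the number of tested genes in brackets. The medians of the 35 genes (-0.28) and of the other endothelial markers (-0.27, or -0.16 over records of at least 1 FPKM) lie left of those of neurons and glia, lists that hold no gene below 3.57 FPKM in either group, and 4 points lie outside the axis.

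Genes of the basement membrane, of cells that lie against the endothelium and of red cells were read in the same way. Basement membrane genes were below 0 in 11 of 11, with 0 calls and a median of -0.09. Their summed level was 187 FPKM after saline and 178 after cocaine, of which Sparc gave 113 and 108 FPKM. At an unadjusted p under 0.05, 1 was lower, Col4a1, at 2.82 and 2.26 FPKM. The authors' deposited table lists p = 0.000558 and q = 0.0550 for it, just outside the threshold. Pericyte and smooth muscle markers were below 0 in 14 of 15, with 0 calls and a median of -0.12, and summed to 79.8 and 72.8 FPKM. Vascular fibroblast and meningeal markers were below 0 in 6 of 8, with 0 calls and a median of -0.28 as deposited, which was -0.09 with 1 FPKM added to both groups, -0.18 over records of at least 1 FPKM and -0.15 once the trend in GC content and length was taken off. They summed to 16.7 and 16.0 FPKM, of which Pdgfra, also made by oligodendrocyte precursors, gave 8.98 and 9.37 FPKM. Red cell genes were below 0 in 5 of 5, summed to 301 and 261 FPKM, and held 1 fall, the alpha globin gene Hba-a2 (80.9 to 67.4 FPKM, q = 0.0335), whose near-identical copy Hba-a1 makes its value uncertain. No tested marker in these lists was at 0 in both groups. The part of these cells, or of blood left in the vessels, in the lower values of the endothelial genes was not tested.

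Lists of other cells of the tissue had medians nearer to 0. Microglial markers had a median log2 fold change of 0.05 with 4 of 12 below 0, and astrocyte markers a median of -0.00423 with 5 of 10 below 0. Neuronal markers had a median of -0.03 with 8 of 10 below 0, oligodendrocyte markers -0.03 with 6 of 8, and oligodendrocyte precursor markers 0.04 with 2 of 5. These lists hold abundant genes, the lowest at 3.57 FPKM, while the 11 members of at least 5 FPKM had a median of -0.14. In these 5 lists 0 genes passed by the authors' deposited test, while at an unadjusted p under 0.05 they held 4 lower and 3 higher. Choroid plexus and ependymal markers had a median of -0.04 and 1 rise, Ttr, which encodes transthyretin (0.668 to 10.8 FPKM, q listed as 0). The difference between the endothelial genes and these lists was not tested, since the table has no values per library.

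Promoter sequence, from 250 bases before to 50 after the RefSeq gene start on GRCm38.p6, was found for 22 of the 35 members, in 31 windows, with Eltd1 listed as Adgrl4. Ptprb, a called member, was among those without a listed promoter. The windows shown belong to the members with a single listed start and an unadjusted p under 0.05, each read 5′ to 3′ on the strand of its gene. Capitals mark matches, on either strand, to the 6 motifs searched: the ETS-type CAGGAAG and CCGGAAG, the SOX-type AACAAT, the GC box GGGCGG, the TATA box TATAAA and the E box CACGTG. None of these motifs overlap in the windows shown.
Cldn5, chr16:18776597-18776896, plus strand: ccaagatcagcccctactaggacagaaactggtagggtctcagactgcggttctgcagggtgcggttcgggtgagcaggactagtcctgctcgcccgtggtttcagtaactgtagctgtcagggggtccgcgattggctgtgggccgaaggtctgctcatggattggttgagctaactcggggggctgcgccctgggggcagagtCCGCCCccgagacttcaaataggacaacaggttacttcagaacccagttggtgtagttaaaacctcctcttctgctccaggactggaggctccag
Eng, chr2:32646345-32646644, plus strand: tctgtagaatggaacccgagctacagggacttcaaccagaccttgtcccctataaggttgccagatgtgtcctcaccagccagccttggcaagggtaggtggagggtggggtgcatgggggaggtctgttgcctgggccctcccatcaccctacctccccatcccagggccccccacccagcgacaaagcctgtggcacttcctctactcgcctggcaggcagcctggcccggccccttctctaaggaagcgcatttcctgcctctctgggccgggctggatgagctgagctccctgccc
Tie1, chr4:118489800-118490099, minus strand: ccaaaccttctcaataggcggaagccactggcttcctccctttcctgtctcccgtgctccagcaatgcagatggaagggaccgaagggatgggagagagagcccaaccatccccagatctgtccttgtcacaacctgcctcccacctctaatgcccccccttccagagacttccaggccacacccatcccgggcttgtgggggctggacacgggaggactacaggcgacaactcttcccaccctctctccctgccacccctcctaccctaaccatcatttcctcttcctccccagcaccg
Itm2a, chrX:107403311-107403610, minus strand: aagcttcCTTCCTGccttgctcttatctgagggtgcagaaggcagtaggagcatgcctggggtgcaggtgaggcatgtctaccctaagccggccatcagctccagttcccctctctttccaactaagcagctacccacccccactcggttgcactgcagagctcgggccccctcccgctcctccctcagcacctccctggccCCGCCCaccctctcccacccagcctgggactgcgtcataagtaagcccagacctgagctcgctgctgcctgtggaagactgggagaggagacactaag

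The Cldn5 window holds 1 match, a GC box on the reverse strand, and the Itm2a window holds an ETS-type CAGGAAG and a GC box, both on the reverse strand. The windows of Eng and Tie1 hold none of the 6 motifs. Over all 31 member windows, CAGGAAG was found in 9 (29.0%), beside 13.3% of 32851 windows of all genes in the RefSeq table. The exact 95% binomial interval of the member share, 14.2% to 48.0%, covers counting error only and treats windows of a gene as separate. CCGGAAG was found in 1 member window (3.23%, beside 8.86%), AACAAT in 5 (16.1%, beside 10.7%) and GGGCGG in 12 (38.7%, beside 35.7%). TATAAA was found in 7 (22.6%, beside 13.6%), and CACGTG in 0, beside 7.15%. A match describes letters in these windows and is not evidence of a bound site.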

How the data were processed

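RNA sequencing libraries of nucleus accumbens, 3 per group, were compared as the authors pooled them. Per the submitters' processing notes TopHat2 2.0.6 and Cufflinks 2.0.2 were used with build NCBIM37; the sources used here give no settings, gene annotation or strandedness. The value of each group was read as the authors' FPKM, because the columns are those of a Cuffdiff gene table, per the file headers; the file itself names no unit. The log2 fold change, p-value and q-value were deposited by the authors and used as such, with a gene called at q < 0.05. Fold changes computed again from both groups differed by at most 1.28e-05 from the deposited ones, 11 tested records with a group at 0 left out. Read depth is unknown, so no counting interval of a level was computed, and the spread behind the deposited p-values may be technical.

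The members, the gene lists and the rules were chosen with earlier results of these data known. All members are named, and of every other list up to 3 called genes and Ttr; other names were added after their values were seen. Where a symbol had several records, the one with the highest mean FPKM was used. For GC content and length the longest GENCODE mouse release 21 transcript was taken, matched by Ensembl identifier (all 35 members and 97.4% of tested records of at least 1 FPKM). That annotation and the RefSeq promoters are of a later build than the authors', so they were joined by name or identifier only. To remove their trend, records of at least 1 FPKM were put in 10 classes of GC content by 10 of length and the class median was taken off. Values with the trend removed therefore leave out genes under 1 FPKM. The trend removal, the adjustment and the implied error were run on simulated data. Those simulated p-values came from a normal test, so the run cannot show whether the authors' test was one. Python 3.11.15, pandas 2.3.3 and SciPy 1.17.1 were used.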

Additional observations from a re-analysis of the deposited data

How the results depend on the processing

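The 2 calls among the members, Cldn5 and Ptprb, also passed at q < 0.01. The count was 10 at an unadjusted p under 0.05, 3 when p-values were adjusted over records of at least 1 FPKM (Slc7a5 added), and 1 among records of at least 5 FPKM, where Ptprb is too low to enter; no setting gave a higher member. The members' median log2 fold change of -0.28 was -0.15 with a pseudocount of 1 FPKM and -0.14 among the 11 members of at least 5 FPKM, of which 10 were below 0; the other settings, of which leaving out the members that overlap another gene was chosen after seeing the data, gave -0.22 to -0.28. Of 100 alternative values of single members, 15 moved by over 1.5 times and 1 changed sign, Bsg at 0.014 with the GC and length trend removed. Of the 20 other lists, 17 had a median below 0 as deposited and 16 over records of at least 1 FPKM. With that trend removed from those records it was 12, where some lists keep few genes (1 perivascular macrophage and 2 venous markers). Within the 100 bases around the gene start, CAGGAAG was found in 9.68% of member windows and 5.18% of all windows, CCGGAAG in 3.23% and 5.21%, AACAAT in 3.23% and 3.03%, GGGCGG in 29.0% and 21.7%, TATAAA in 19.4% and 4.94%, and CACGTG in 0 and 2.92%. No paired analysis was possible because the table holds 1 value per group, and for the same reason no library could be left out.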

Other observations

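Markers of endothelial subtypes gave 0 calls in the authors' deposited table and 0 genes at an unadjusted p under 0.05. The 8 arterial markers tested had a median log2 fold change of -0.06 with 6 below 0, and the 6 venous markers -0.15 with 4 below 0. Over records of at least 1 FPKM, which kept only 5 arterial and 2 venous markers, the medians were -0.000786 and 0.055. Once the trend in GC content and length was taken off those same records, they were 0.019 and 0.062. Both of these arterial medians are the value of Efnb2, at 45.5 FPKM in both groups. Efnb2 and Hey1 (21.8 FPKM after saline) lie well above Pecam1 (2.80 FPKM), and which cells their RNA came from was not tested. Of the 6 arterial markers below 0, Gja4 stood at -0.46, Sema3g at -0.32 and Gja5 at -0.23, none of them called. One of the 2 venous markers kept was Vcam1, at 6.46 FPKM after saline. Adding 1 FPKM to both groups kept all 8 and 6 markers, and the medians stayed below 0, at -0.04 and -0.06. Whether either direction holds cannot be decided here, since the markers under 1 FPKM carry much of it and few others remain. The 8 tested markers of activated or fenestrated endothelium, among them Plvap, which encodes the diaphragm protein of fenestrae (2.36 FPKM after saline and 2.24 after cocaine, p = 0.613 by the authors), had a median of 0.02 with 4 below 0, and Selp, an adhesion molecule of activated endothelium, was listed at 0 in both groups. Among lymphatic markers, Flt4 was at 0.342 and 0.242 FPKM and Ccl21a at 0.549 and 0.513 FPKM, while Pdpn (4.81 and 4.82 FPKM) and Prox1 (2.01 and 1.95 FPKM) are also made by brain cells. The perivascular macrophage markers summed to 2.38 and 1.89 FPKM over 3 genes. Differences between subtypes were not tested.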
